A study of Mus musculus with 12 samples.

Results

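The 10 genes described here encode proteins that the liver and the yolk sac secrete, namely Afp, Alb, Ttr, Apoa1, Apoa2, Apoa4, Apob, Apoc2, Apom and Rbp4. They were found by gene symbol, each in 1 row, among the 26190 genes of the deposited expression table. RNA-seq had been done on 12 libraries in 4 groups of 3, and every library was labelled as mouse strain C57BL/6. The E11.5H groups were atria and ventricles cut from hearts of mouse embryos at E11.5. The HO groups were atrium-like and ventricle-like parts cut from heart organoids after 13 days of culture; HOs grew from embryoid bodies of mouse embryonic stem cells on a laminin-entactin gel in medium with FGF4, to which BMP4, BIO and LIF were given from day 9 onwards. Per the methods, the HOs were biological triplicates that were each cut into both parts, so an atrium-like and a ventricle-like library may share an HO, but no source used here ties the numbers of the libraries to single HOs. The sources do not say how many hearts went into an E11.5H library, whether these were separate litters, or which of the study's stem cell lines gave the HOs, so p-values measure the spread between these libraries, which may in part be technical. The libraries held 23971258 to 30540993 fragments.

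Alpha-fetoprotein, encoded by Afp, and albumin are related carriers of the fetal and adult plasma. Transthyretin, encoded by Ttr, carries thyroid hormone and binds the retinol-binding protein RBP4, which brings retinol from its stores to tissues. Apolipoproteins are the protein part of lipoproteins: APOB frames the large lipid particles that enterocytes, hepatocytes and yolk sac cells release, APOA1 and APOA2 are the main proteins of high-density lipoprotein, APOA4 travels on particles from the gut, APOC2 activates lipoprotein lipase, and APOM carries sphingosine-1-phosphate. In the mouse embryo the visceral endoderm of the yolk sac makes these proteins before the fetal liver takes over, and the embryonic gut epithelium makes several of the apolipoproteins. Heart muscle is not a known main source of most of them.

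In GRCm38, the build of the authors' alignment, Alb lay at chr5:90460870-90476602 and Afp at chr5:90490714-90508907, both on the + strand, with 14.1 kb between them. Apoa1 (chr9:46228630-46230469) and Apoa4 (chr9:46240844-46243458) were also neighbours on the + strand, 10.4 kb apart.

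The 150 bases before the annotated start of the genes of both neighbouring pairs are printed here because these genes lie side by side and differed in how closely they followed each other over the HO libraries. The sequences come from the RefSeq promoter table for GRCm38.p6, 5′ to 3′ on the gene's strand, and the capitals mark matches to a HNF1 half-site (GTTAAT), a FOXA-type motif (TGTTTGC), a C/EBP-type motif (TTGCNNAA) and a TATA box (TATAAA), searched on both strands.
Alb, chr5:90460720-90460869, + strand: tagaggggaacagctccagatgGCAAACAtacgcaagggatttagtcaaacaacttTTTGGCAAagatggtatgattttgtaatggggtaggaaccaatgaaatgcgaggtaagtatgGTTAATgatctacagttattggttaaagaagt
Afp, chr5:90490564-90490713, + strand: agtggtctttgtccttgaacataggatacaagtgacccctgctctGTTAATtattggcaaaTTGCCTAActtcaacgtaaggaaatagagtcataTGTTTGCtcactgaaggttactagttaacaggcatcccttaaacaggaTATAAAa
Apoa1, chr9:46228480-46228629, + strand: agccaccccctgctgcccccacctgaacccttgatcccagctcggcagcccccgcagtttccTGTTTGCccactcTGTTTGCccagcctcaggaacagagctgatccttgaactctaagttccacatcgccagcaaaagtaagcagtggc
Apoa4, chr9:46240694-46240843, + strand: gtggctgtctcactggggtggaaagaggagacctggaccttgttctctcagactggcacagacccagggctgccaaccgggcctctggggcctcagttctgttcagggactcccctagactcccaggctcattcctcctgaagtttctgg
The Alb and Afp windows each held the HNF1 half-site, the FOXA-type and the C/EBP-type letters. The Afp window also held the TATA box letters, 7 to 2 bases before the annotated start. The Apoa1 window held the FOXA-type letters at 2 places, and the Apoa4 window held none of the letters searched. Of the 10 genes 9 had a start in the table, and the 7 with a single start outside the Ttr locus were searched. Ttr was left out by its locus, whatever its number of starts, so the tallies do not cover it. Among these 7 windows, 3 held the HNF1 half-site, 4 the FOXA-type, 3 the C/EBP-type and 2 the TATA box letters, and 0 held a GATA-type motif (AGATAA). Over all 32843 windows of this length the shares were 3.71%, 2.44%, 5.46%, 7.58% and 5.65%. The motifs were chosen with these windows in view, and a match is a run of letters, not a measured site.

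Levels were compared as FPKM, which the authors calculated per kilobase of transcript and by library size. Among the plasma carriers, Afp reached 3741, 78.6 and 1453 FPKM in the atrium-like libraries 1, 2 and 3, and 85.0, 1.88 and 2376 in the ventricle-like libraries 1, 2 and 3. Alb stood at 18.9, 0.358 and 64.6 FPKM in the atrium-like and at 0, 0.876 and 40.3 in the ventricle-like libraries. Afp was thus among the most abundant transcripts of 3 libraries, at rank 6 of 26190 genes in atrium-like library 1, rank 17 in atrium-like library 3 and rank 5 in ventricle-like library 3, but at rank 11382 in ventricle-like library 2. In bulk RNA, fewer cells of a type and less RNA per cell cannot be told apart, so these values do not show how many cells made a transcript.

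The retinol carriers were high in the same 3 libraries. Ttr had 532, 27.7 and 318 FPKM in atrium-like libraries 1 to 3 and 17.9, 25.6 and 281 in ventricle-like libraries 1 to 3. Rbp4 had 427, 30.9 and 673 FPKM in the atrium-like and 16.6, 3.23 and 633 in the ventricle-like libraries. Ttr had the narrowest range of the genes seen in every HO library, 29.8-fold between the highest and the lowest, against 208-fold for Rbp4 and 1992-fold for Afp.

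The apolipoproteins of high-density lipoprotein differed in which library led. Apoa1, rank 3 of 26190 genes in atrium-like library 1, had 7215, 432 and 1986 FPKM in the atrium-like and 115, 1.24 and 1303 in the ventricle-like libraries. Apoa2 had 32.6, 2.54 and 181 FPKM in the atrium-like and 1.58, 0.263 and 59.9 in the ventricle-like libraries. Apoa1 was highest in atrium-like library 1 and Apoa2 in atrium-like library 3.

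Apoa4 had 3250, 321 and 1067 FPKM in the atrium-like libraries and 39.9, 0.0184 and 272 in the ventricle-like libraries, where the 0.0184 stood for 1 fragment. Apob had 106, 8.80 and 47.8 FPKM in the atrium-like and 2.75, 0.0110 and 25.0 in the ventricle-like libraries, the 0.0110 being 5 fragments. Both fell in the same order over the 6 libraries except that atrium-like library 2 and ventricle-like library 3 changed places.

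Apom and Apoc2 were the members at 0 in 2 ventricle-like libraries. Apom had 45.2, 6.83 and 80.1 FPKM in the atrium-like libraries and 0, 0 and 17.5 in the ventricle-like libraries. Apoc2 had 0.270, 0.117 and 0.614 FPKM in the atrium-like and 0, 0 and 0.0611 in the ventricle-like libraries, with at most 16.2 fragments in a library. A count of 0 in a library allowed up to 3 fragments, which is 0.0982 to 0.125 CPM at these depths and covers counting error only.

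The other 6 lay on chromosomes of their own: Ttr on chromosome 18, Apoa2 on chromosome 1, Apob on chromosome 12, Apoc2 on chromosome 7, Apom on chromosome 17 and Rbp4 on chromosome 19. Ttr overlapped Gm16090 and Apoa2 overlapped Tomm40l on the opposite strand, and the sources used here do not say whether counting used strand. Apoc2 overlapped Gm44805 on its own strand and shared a transcript with Apoc4, so its fragments could be split between genes.

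**Figure D1:**
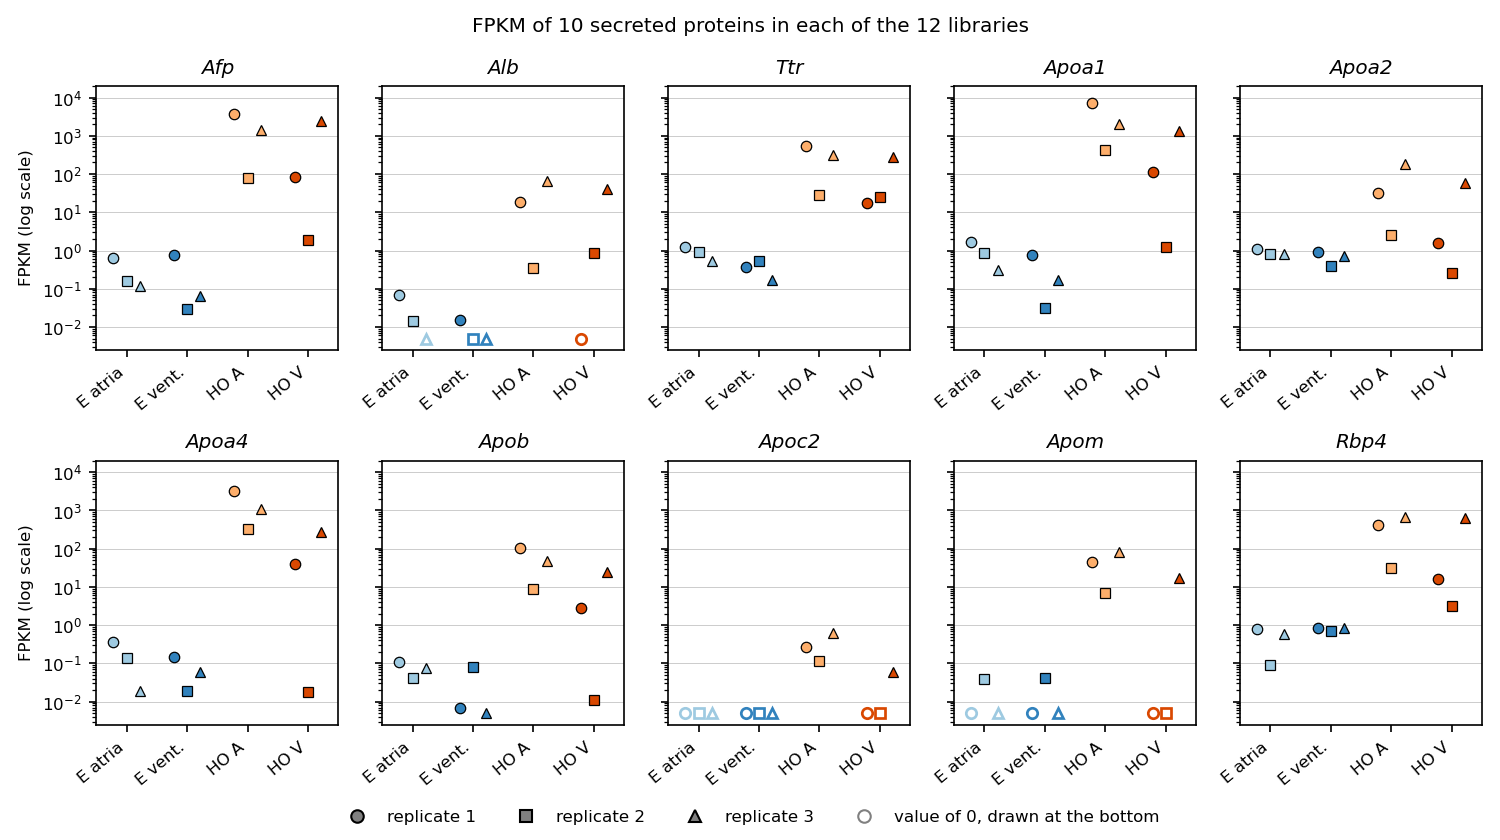
FPKM on a log axis of the 10 genes in each of the 12 libraries, 1 panel a gene; symbols mark replicates 1 to 3, colours the 4 groups (E atria and E vent. are E11.5H, HO A and HO V the atrium-like and ventricle-like parts), and open symbols at the bottom values of 0. The HO values of a gene spread over several orders of magnitude, for example from 1.88 to 3741 FPKM for Afp, while its E11.5H values lay at or under 0.777.

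Atrium-like libraries 1 and 3 and ventricle-like library 3 were the 3 highest libraries for 8 of the 10 genes. The exceptions were Apoa4 and Apoc2, for which atrium-like library 2 lay above ventricle-like library 3. For Apoc2 these libraries held only 3.21 and 1.61 fragments. Atrium-like library 1 was highest for 5 genes (Afp, Ttr, Apoa1, Apoa4, Apob) and atrium-like library 3 for the other 5 (Alb, Apoa2, Apoc2, Apom, Rbp4). Ventricle-like library 2 was lowest, ties included, for 8 genes, and ventricle-like library 1 for Alb and Ttr as well as in the ties of Apoc2 and Apom. The mean ranks were 1.6 and 1.8 for atrium-like libraries 3 and 1, 2.8 for ventricle-like library 3, 4.0 for atrium-like library 2, and 5.2 and 5.6 for ventricle-like libraries 1 and 2. Kendall's coefficient of concordance over the 10 genes and 6 libraries was 0.836, given as a description since all genes were counted in the same libraries. Neighbours in the order were often close: Rbp4 was 1.06-fold higher in its first than in its second library, against a 13.8-fold step from rank 3 to rank 4. The step from rank 3 to rank 4 was 17.1-fold for Afp, 21.5-fold for Alb, 10.1-fold for Ttr and 12.9-fold for Apoa2. It was smaller for the other 5 genes, at 3.01-fold for Apoa1, 2.85-fold for Apob, 2.56-fold for Apom, 1.91-fold for Apoc2 and 1.18-fold for Apoa4.

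The 10 genes held 2.76% of all fragments in atrium-like library 1, 0.154% in library 2 and 1.10% in library 3. In the ventricle-like libraries they held 0.0512%, 0.00501% and 0.987%. In E11.5H libraries the share was 0.000282% to 0.00102%.

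The mixture of the 10 transcripts also differed between the libraries. Of their summed FPKM, Apoa1 made 46.9%, 47.5% and 33.8% in atrium-like libraries 1 to 3, and 41.3%, 3.74% and 26.0% in ventricle-like libraries 1 to 3. Afp made 24.3%, 8.64% and 24.7% in the atrium-like and 30.5%, 5.67% and 47.4% in the ventricle-like libraries. Ttr made 3.05% to 6.40% in every HO library except ventricle-like library 2, where it made 77.3%.

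Within the neighbouring pairs, Alb had 0.504, 0.455 and 4.45 FPKM for each 100 of Afp in the atrium-like libraries, and 0, 46.7 and 1.70 in the ventricle-like libraries. The ratio of 46.7 rested on 59 fragments of Alb and 128 of Afp. Apoa4 had 45.0, 74.3 and 53.8 FPKM for each 100 of Apoa1 in the atrium-like libraries, and 34.7, 1.48 and 20.9 in the ventricle-like libraries. Outside ventricle-like libraries 1 and 2, Alb per 100 Afp ran from 0.455 to 4.45 and Apoa4 per 100 Apoa1 from 20.9 to 74.3. Taken as highest over lowest, the span of the apolipoprotein pair was the narrower there. Alb was at 0 in ventricle-like library 1, and both ratios lay outside these spans in ventricle-like library 2.

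Rbp4 had 80.4, 111 and 211 FPKM for each 100 of its partner Ttr in the atrium-like libraries, and 92.7, 12.6 and 225 in the ventricle-like libraries. Apoa2 had 0.452, 0.586 and 9.13 FPKM for each 100 of Apoa1 in the atrium-like libraries, and 1.37, 21.2 and 4.59 in the ventricle-like libraries. Both ratios were higher in atrium-like library 3 and ventricle-like library 3 than in atrium-like libraries 1 and 2.

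**Figure D2:**
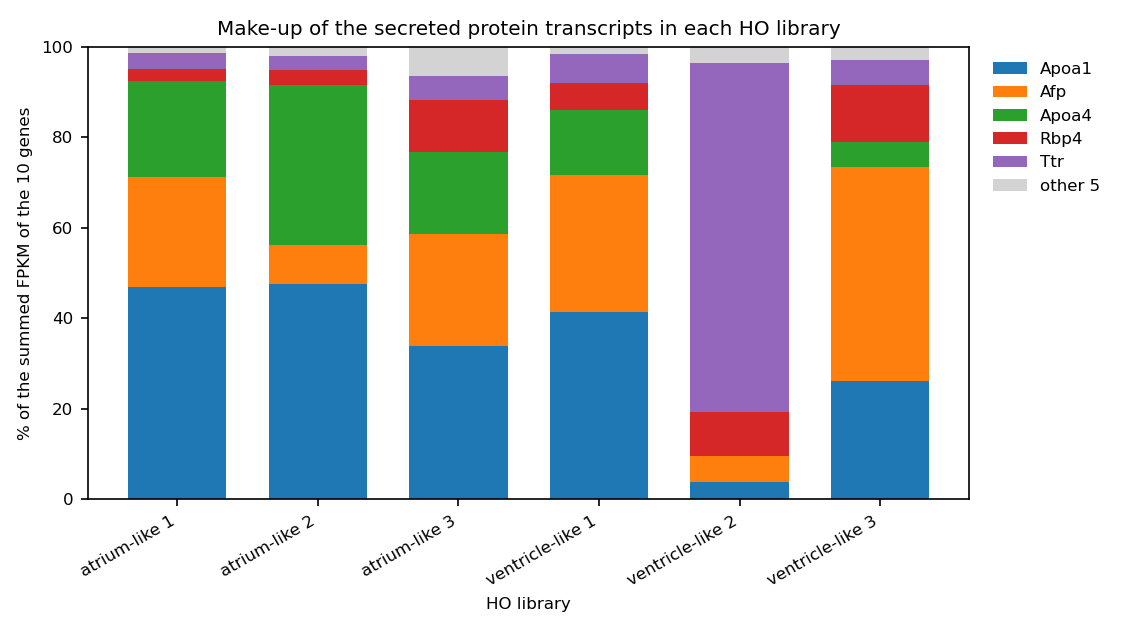
Share of the summed FPKM of the 10 genes, in percent, taken by Apoa1, Afp, Apoa4, Rbp4, Ttr and the other 5 in each of the 6 HO libraries. Apoa1, Afp and Apoa4 made up most of the bar in 5 libraries, and Ttr made 77.3% in ventricle-like library 2.

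On the log2 CPM scale, the 45 pairs of the 10 genes had a median Pearson r of 0.852 over the 6 HO libraries and a median Spearman rho of 0.829. The closest pair was Apoa1 and Apob (r = 0.996), and the loosest was Alb and Apoa4 (r = 0.420). The r of 0.420 included 0 fragments of Alb in ventricle-like library 1 and 1 of Apoa4 in ventricle-like library 2. Without ventricle-like library 1 the lowest r was 0.573, for the same pair. Without ventricle-like library 2 it was 0.660, for Afp and Apoc2. Of the neighbouring pairs whose upstream windows are printed above, Apoa1 and Apoa4 had an r of 0.986 and Alb and Afp one of 0.630. The former included the value of Apoa4 from 1 fragment and the latter that of Alb from 0. The points share their libraries, depth and normalization, and the correlations are a description of 6 points. Each gene's r with the mean of the other 9 ran from 0.683 for Alb to 0.975 for Rbp4, with Afp at 0.954, Apoa2 at 0.950 and Apoa1 at 0.944.

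The profile shared by the genes, taken as the mean of each gene's log2 CPM after its own mean over the 6 libraries had been subtracted, held 77.7% of the variance. It stood at 3.64 in atrium-like library 1, -0.53 in library 2 and 3.47 in library 3, and at -3.01, -5.87 and 2.30 in ventricle-like libraries 1, 2 and 3. Single genes departed from it by a residual SD of 1.89. The members lay closest to the profile in the 3 libraries with high levels, where the SD around it was 1.08 to 1.25, and farthest in ventricle-like library 2, where it was 3.33.

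In ventricle-like library 2, Apoa4 lay 5.81 below the profile while Alb lay 4.38 and Ttr 3.87 above it. In ventricle-like library 1, Alb lay 5.23 below it. Of these values, those of Apoa4 and of Alb in library 1 rested on 1 and 0 fragments and depend on the prior count.

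**Figure D3:**
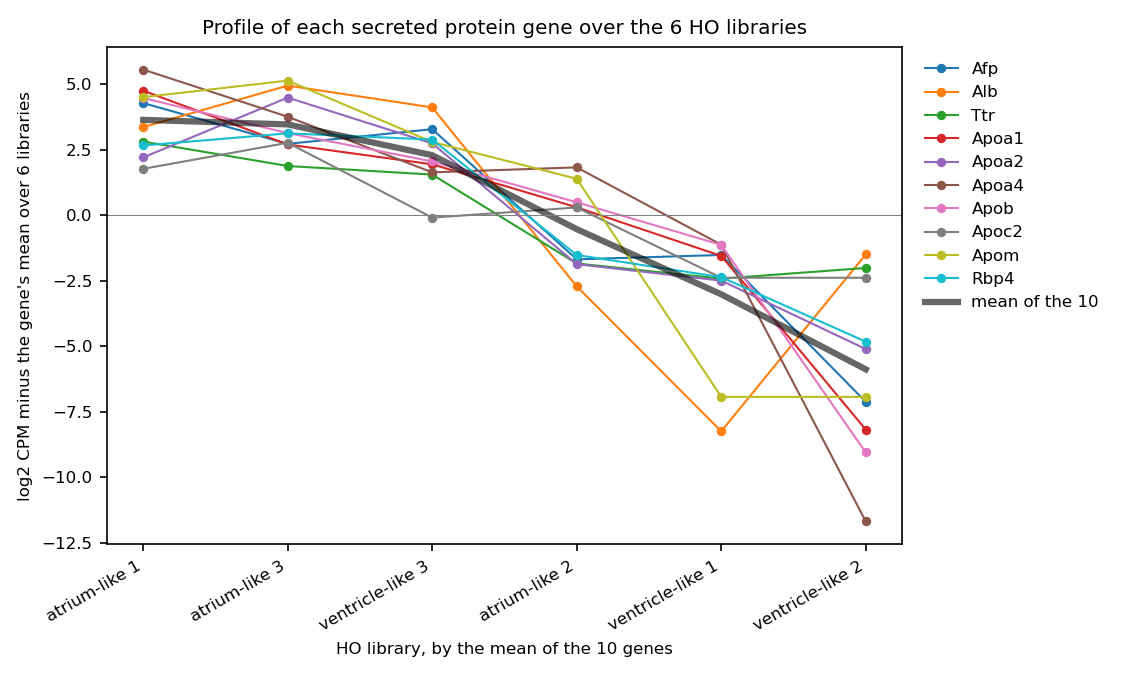
log2 CPM of each gene minus its mean over the 6 HO libraries, with the libraries ordered by the mean of the 10 genes (thick grey line). The lines run together over the 3 libraries on the left and fan out in ventricle-like libraries 1 and 2, where Alb, Apom and Apoa4 departed most.

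Among the 10572 other genes with at least 10 CPM on average in HO libraries, those most like the mean of the 10 over the 6 libraries included Mreg (r = 0.999), Cyp2s1 (0.997), Erbb3 (0.995), Maob (0.995), Tmem30b (0.993), Ifnlr1 (0.992) and Kng1 (0.992). Kng1 encodes kininogen, itself a plasma protein of the liver. Kng1 had 45.7, 2.37 and 50.8 FPKM in the atrium-like libraries and 0.853, 0.116 and 42.8 in the ventricle-like libraries. With only 6 points such values were common: 9.48% of these genes had an r over 0.9, as did 7 of the 9 members at this level, which are part of the mean themselves, and the median r was 0.123.

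In the embryonic chambers the 10 genes were at trace levels. Afp had 0.637, 0.157 and 0.118 FPKM in E11.5H atria 1 to 3, and 0.777, 0.0297 and 0.0649 in E11.5H ventricles 1 to 3. Apoa1 had 1.63, 0.871 and 0.312 FPKM in atria and 0.758, 0.0314 and 0.171 in ventricles. Both were highest in library 1 of either chamber.

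Ttr had 1.26, 0.937 and 0.533 FPKM in atria and 0.360, 0.538 and 0.168 in ventricles. Apoa2 had 1.09, 0.832 and 0.799 FPKM in atria and 0.936, 0.398 and 0.732 in ventricles, so its lowest HO value, 0.263, lay under all 6 embryonic values. Rbp4 had 0.806, 0.0915 and 0.594 FPKM in atria and 0.866, 0.693 and 0.861 in ventricles. The remaining genes were lower still, with Apoa4 at 0.0185 to 0.373, Apob at 0.00487 to 0.108, Alb at 0 to 0.0685 and Apom at 0 to 0.0405 FPKM, and Apoc2 was 0 in all 6 libraries.

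None of the 10 genes differed between E11.5H atria and ventricles at an adjusted p under 0.05 with an absolute log2 fold change over 1, the rule for a call used throughout (edgeR quasi-likelihood test). Over all genes tested 4.9% were called. Of the 10 genes 6 passed the filter on low counts, and 0 of these had an unadjusted p under 0.05 in edgeR, against 26.9% of all genes. The log2 fold changes, atria over ventricles, ran from -0.75 for Rbp4 to 1.49 for Apoa1, and only Ttr did not overlap between the chambers, against 23.9% of all genes that were higher in every atrial library.

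HO atrium-like parts stood above E11.5H atria in all 10 genes without overlap, against 24.7% of all genes tested. For Apoc2 this rested on as few as 3.21 fragments, in atrium-like library 2, against 0 in the atria, which is near the floor of 3 fragments. Of the 9 genes that passed the filter all were called higher by edgeR, against 24.8% of all genes called and 16% called higher. Of these 9, 4 (Ttr, Apoa1, Apoa2, Apob) passed the filter through the atria alone, and the other 5 could pass only with HO libraries. The log2 fold changes ran from 6.51 to 13.32 with a median of 10.05, or 9.92 with Apoc2 set at its lower bound, while the median of all genes was 0.06.

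The 2 largest fitted changes were those of Apoa4 (13.32, SE 1.61, edgeR adjusted p = 0.00374) and Afp (12.76, SE 2.0, adjusted p = 0.00709). Apoa1 followed at 12.02 (SE 1.63, edgeR adjusted p = 0.00513). Among the retinol carriers Rbp4 rose by 9.78 (SE 1.56, edgeR adjusted p = 0.00750) and Ttr by 8.58 (SE 1.33, adjusted p = 0.00689). Apob rose by 9.75 (SE 1.27, edgeR adjusted p = 0.00453).

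Alb rose by 10.05 (SE 2.20, edgeR adjusted p = 0.0182), and Apoa2 showed the smallest change, 6.51 (SE 1.55, adjusted p = 0.0231). Both calls were lost when any 1 of the 3 E11.5H atria libraries was left out, so the count of calls was then 7. Their log2 fold changes were then 9.51 to 11.77 for Alb and 6.41 to 6.68 for Apoa2, while the calls over all genes fell from 3821 to between 1662 and 1726. Leaving out the atrium-like library with the highest value brought Afp to 11.43 and Apoa1 to 10.45 (without library 1) and Alb to 8.65 and Apoa2 to 4.60 (without library 3), with all 9 still called. Limma-voom called 0 of the 9 and 3433 of all genes, with log2 fold changes of the 9 from 4.78 for Apoa2 to 13.24 for Apoa4 and larger SEs, such as 6.80 for Afp. Apom, with 1 fragment in the 3 E11.5H atria, was called, and its ratio of summed CPM was 3446 with a 95% counting interval of 618 to 136153. Apoc2, with 26 fragments against 0, was at least 9.45-fold higher by the floor of 3 fragments over the group.

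HO ventricle-like parts stood above E11.5H ventricles without overlap in 4 of the 10 genes (Afp, Ttr, Apoa1, Rbp4), against 31.2% of all genes tested. The same 4 were called higher, against 18.9% of all genes called and 11.6% called higher. Of the 6 genes that passed the filter, 2 (Apoa2, Rbp4) did so through the E11.5H ventricles alone, and the other 4 (Afp, Ttr, Apoa1, Apob) could pass only with HO libraries. The log2 fold change was 11.37 for Afp (SE 3.07, edgeR adjusted p = 0.0371) and 10.42 for Apoa1 (SE 2.72, adjusted p = 0.0339). It was 8.15 for Ttr (SE 1.49, edgeR adjusted p = 0.0121) and 7.98 for Rbp4 (SE 2.22, adjusted p = 0.0402). The SE of each of the 6 genes tested in both comparisons was larger here than against the atria.

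Of these 6, Apob (8.13, SE 2.55, edgeR adjusted p = 0.0571) and Apoa2 (4.81, SE 1.94, adjusted p = 0.110) were not called. The median of the 6 was 8.14 and that of all genes 0.09. Alb, with 1 fragment in the 3 E11.5H ventricles, had a ratio of summed CPM of 2711 with a counting interval of 486 to 107108, and Apom, also with 1, had a ratio of 427 with an interval of 76.3 to 16924. Neither passed the filter, and these intervals leave out the spread between libraries, in which Alb was at 0 in 1 ventricle-like library and Apom in 2. Ventricle-like library 3 held all 434 Apom fragments of the 3 libraries and 2692.5 of the 2751.5 Alb fragments.

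The number of calls changed when a library was left out. It was 0 without any 1 of the E11.5H ventricles libraries, where the calls over all genes also fell, from 2859 to between 1116 and 1212, and the log2 fold changes were 7.83 to 8.55 for Ttr and 10.81 to 13.93 for Afp. The count was 3 without ventricle-like library 1, 7 of 7 tested without ventricle-like library 2 and 4 without ventricle-like library 3. Without ventricle-like library 3 the log2 fold changes fell to 7.14 for Afp, 7.41 for Apoa1, 5.80 for Ttr and 3.52 for Rbp4. In a fit of all 12 libraries together, where the groups share 1 estimate of the spread, 8 of 9 tested were called, and limma-voom called 0 of 6 and 2288 of all genes.

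Between the HO parts, all 9 genes tested had higher fitted levels in atrium-like than in ventricle-like parts, and 0 were called by edgeR, as were 0% of all genes. The log2 fold changes ran from 1.05 (SE 1.88) for Rbp4 to 4.21 (SE 2.31) for Apoa4 with a median of 2.02 and a median of all genes of -0.03. The edgeR adjusted p-values lay between 0.750 and 0.894, and 0 of the 9 genes had an unadjusted p under 0.05, against 5.66% of all genes. DESeq2 and limma-voom also called 0. Only Apoa4 and Apoc2 were higher in every atrium-like than in every ventricle-like library, against 4.11% of all genes. For Apoc2, which did not pass the filter, this rested on 3.21 fragments in atrium-like library 2 against 1.61 in ventricle-like library 3.

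For the other 8 genes the parts overlapped, since ventricle-like library 3 lay above atrium-like library 2 in each. Cardiomyocyte genes went the other way: the summed level of 16 of them was 813 to 2863 CPM in atrium-like and 3695 to 10464 CPM in ventricle-like libraries, and all 16 had lower fitted levels in atrium-like parts with 0 called. When libraries were scaled to equal cardiomyocyte expression, all 9 secreted protein genes were called higher in atrium-like parts, against 9.78% of all genes called and 9.71% called higher, and the median of all genes moved from -0.03 to 1.58. Because the scaling list was itself lower in every atrium-like library, this scaling raised the fold changes of genes in general. It therefore cannot show the part of the cardiomyocyte level in the difference, which was not tested.

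The difference between HO and E11.5H was compared between the chambers with an interaction term over all 12 libraries, and 0 of the 9 genes tested were called by edgeR, against 0.152% of all genes. Their interaction terms ran from -0.84 for Alb to 3.24 for Apom, the adjusted p-values from 0.754 to 0.973, and 0 had an unadjusted p under 0.05, against 11.7% of all genes. Calls in the atrium-like and not in the ventricle-like comparison are therefore not shown to differ.

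**Figure D4:**
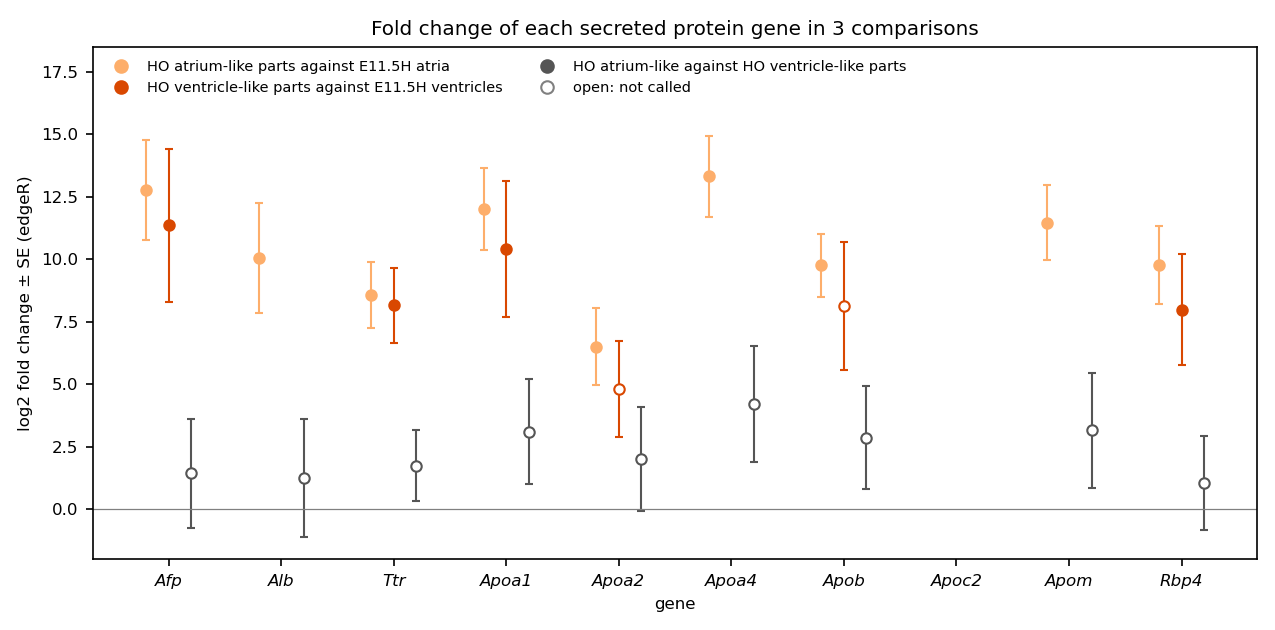
log2 fold change ± SE (edgeR) of each gene in the 3 comparisons with HO libraries; filled points were called, open points were not, and genes that did not pass the filter have no point. The 9 points against E11.5H atria are filled and lie between 6.51 and 13.32, 4 of the 6 against E11.5H ventricles are filled, and the 9 between HO parts are open and lie between 1.05 and 4.21.

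Other secreted proteins of the liver and yolk sac were counted in the same way, from a list of 26. Of 20 tested against E11.5H atria 16 were called higher, against 16% of all genes. Of 10 tested against E11.5H ventricles 10 were called higher, against 11.6% of all genes. As with the 10 genes, a gene low in E11.5H could pass the filter only with HO libraries. Counts and medians of a list with such genes therefore lean towards genes high in HO. Trf, which encodes the iron carrier transferrin, had 1720, 91.7 and 931 FPKM in the atrium-like and 133, 76.7 and 1163 in the ventricle-like libraries, against 10.9 to 15.1 in E11.5H. Its log2 fold change was 6.46 (SE 1.16, edgeR adjusted p = 0.0106) against atria and 5.08 (SE 1.16, adjusted p = 0.0231) against ventricles. Apoe, an apolipoprotein that macrophages and many other cells also make, kept a narrow range of 794 to 1080 FPKM over the 6 HO libraries, against 151 to 247 in E11.5H. The median log2 fold change of the tested genes was 9.26 against atria, or 8.53 with 5 genes absent from the atria at their lower bound, and 6.66 against ventricles.

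Of 13 genes of lipoprotein assembly, remodelling and uptake, 12 were tested in each comparison. Of these, 9 were called higher against atria and 5 against ventricles, against 16% and 11.6% of all genes. The medians of the list were 2.05 and 2.44. Mttp, which loads lipid onto APOB, had 312, 53.4 and 107 FPKM in the atrium-like and 11.7, 1.06 and 53.5 in the ventricle-like libraries, against 1.24 to 1.75 in E11.5H. It was called against atria (log2 fold change 7.0, SE 0.88, edgeR adjusted p = 0.00423) and not against ventricles (3.80, SE 1.26, adjusted p = 0.0661).

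Of 7 genes of retinol carriage 3 were called higher against atria (Rbp2, Lrat, Rdh10) and 4 against ventricles (Stra6, Rbp2, Rdh10, Crabp2), with medians of 0.20 and 3.94. Over all genes 16% and 11.6% were called higher. Rbp2, the cellular retinol-binding protein of enterocytes, had 2052, 252 and 339 FPKM in the atrium-like and 18.9, 0.911 and 142 in the ventricle-like libraries. The mean log2 CPM of this list followed the 10 secreted proteins least among the endoderm and liver lists over the 6 HO libraries (r = 0.239).

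The mean levels of marker lists for tissues that make these proteins moved with them, though single markers did not all do so. Genes at 0 entered these means at the prior count, such as 3 of the 14 hepatocyte enzymes in every ventricle-like library. Over the 6 HO libraries the mean log2 CPM of the 10 genes had an r of 0.991 with 14 endoderm and liver transcription factors, 0.976 with the other secreted proteins, 0.973 with 10 genes of visceral endoderm and yolk sac epithelium, 0.962 with 14 genes of gut epithelium, 0.941 with 14 hepatocyte enzymes and 0.935 with the lipoprotein list. It was -0.201 with cardiomyocyte genes, -0.602 with endothelial, -0.668 with fibroblast and -0.676 with macrophage genes. The lists share libraries and depth, and the part of each cell type in the levels of the 10 genes was not tested.

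The gut epithelium list had a summed level of 2615 to 18436 CPM in atrium-like and 138 to 3358 CPM in ventricle-like libraries, against 46.9 to 87.4 in E11.5H. All 14 of its genes were called higher against atria, with a median of 11.10 (11 with 1 gene at its bound), and 10 of 12 tested against ventricles, with a median of 8.12. The shares of all genes called higher were 16% and 11.6%. Fabp1, a fatty acid-binding protein of enterocytes and hepatocytes, had 8851, 794 and 639 FPKM in the atrium-like and 120, 2.99 and 451 in the ventricle-like libraries. Epcam, an epithelial adhesion molecule, had 701, 107 and 409 FPKM and 58.4, 5.67 and 235 FPKM.

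Of the endoderm and liver transcription factors 9 of 12 tested were called higher against atria and 1, Prox1, lower, with a median of 6.32. Against ventricles 3 of 9 were higher and Prox1 lower, with a median of 3.45. Of all genes 16% and 11.6% were called higher, and 8.81% and 7.35% lower. Hnf4a, a regulator of hepatocyte, gut and visceral endoderm genes, had 49.5, 9.86 and 23.7 FPKM in the atrium-like and 2.15, 0 and 17.8 in the ventricle-like libraries, with at most 0.0134 in E11.5H. Gata4 and Gata6, which the heart also uses, were called in neither comparison. Not every factor had the order of Hnf4a. Sox17 had 1.37, 26.7 and 14.7 FPKM in the atrium-like and 0.977, 0.874 and 6.78 in the ventricle-like libraries. Gata4 had 35.6, 111 and 44.3 FPKM and 119, 59.5 and 47.3 FPKM. Between the HO parts 10 of 13 factors tested had higher fitted levels in atrium-like parts, with 0 called.

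Of the visceral endoderm and yolk sac list, 6 of 10 were called higher against atria, with a median of 2.30, and 3 of 9 higher and 1 lower (Cited1) against ventricles, with a median of 1.02. The shares over all genes were 16% and 11.6% called higher, and 8.81% and 7.35% called lower. Cubn, a receptor for uptake in yolk sac and kidney epithelium, had 15.6, 3.39 and 15.3 FPKM in the atrium-like and 1.10, 0.0297 and 9.28 in the ventricle-like libraries. Its summed list level was 774 to 1776 CPM in atrium-like and 347 to 861 CPM in ventricle-like libraries, against 325 to 763 CPM in E11.5H.

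Of the 14 hepatocyte enzymes 8 were tested against atria, with 7 higher and Tdo2 lower and a median of 10.13 (8.78 with 3 genes at their bound). Against ventricles 2 of 4 tested were higher and Tdo2 lower, with a median of 5.01. Over all genes 16% and 11.6% were called higher, and 8.81% and 7.35% lower. Of the enzymes tested, 3 against atria and 1 against ventricles were at 0 in that whole embryonic group. They passed the filter through HO libraries alone. The summed level of this list was 410 to 2411 CPM in atrium-like and 28.1 to 443 CPM in ventricle-like libraries, with 1 gene at 0 in all HO libraries. Cps1, the first enzyme of the urea cycle in liver and gut, had 55.9, 28.1 and 5.19 FPKM in the atrium-like and 0.395, 0 and 2.93 in the ventricle-like libraries. Of 8 enzymes tested between the HO parts 7 had higher fitted levels in atrium-like parts, with 0 called. Arg1 was the exception, with 10.6, 15.6 and 1.77 FPKM in the atrium-like and 37.7, 15.0 and 6.99 in the ventricle-like libraries.

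Markers of muscle, blood and other cells of the heart were counted in the same way, against 8.81% of all genes called lower than in E11.5H atria and 7.35% lower than in E11.5H ventricles. Of 16 cardiomyocyte genes 15 were called lower against atria and 14 against ventricles, with medians of -3.68 and -2.71 and summed levels of 813 to 10464 CPM in HO against 34509 to 45497 CPM in E11.5H. All 9 erythroid genes tested were called lower in both comparisons, with medians of -7.69 and -10.64. Endothelial genes were called lower for 1 of 10 against atria and 3 of 10 against ventricles, with medians of -3.03 and -3.22. Against the 16% and 11.6% of all genes called higher, fibroblast and mesenchyme genes were called higher for 4 and 3 of 10, with medians of 1.37 and 1.32, and macrophage genes for 1 and 6 of 10, with medians of 2.06 and 3.23. Between the HO parts 0 genes of any list were called by edgeR.

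**Figure D5:**
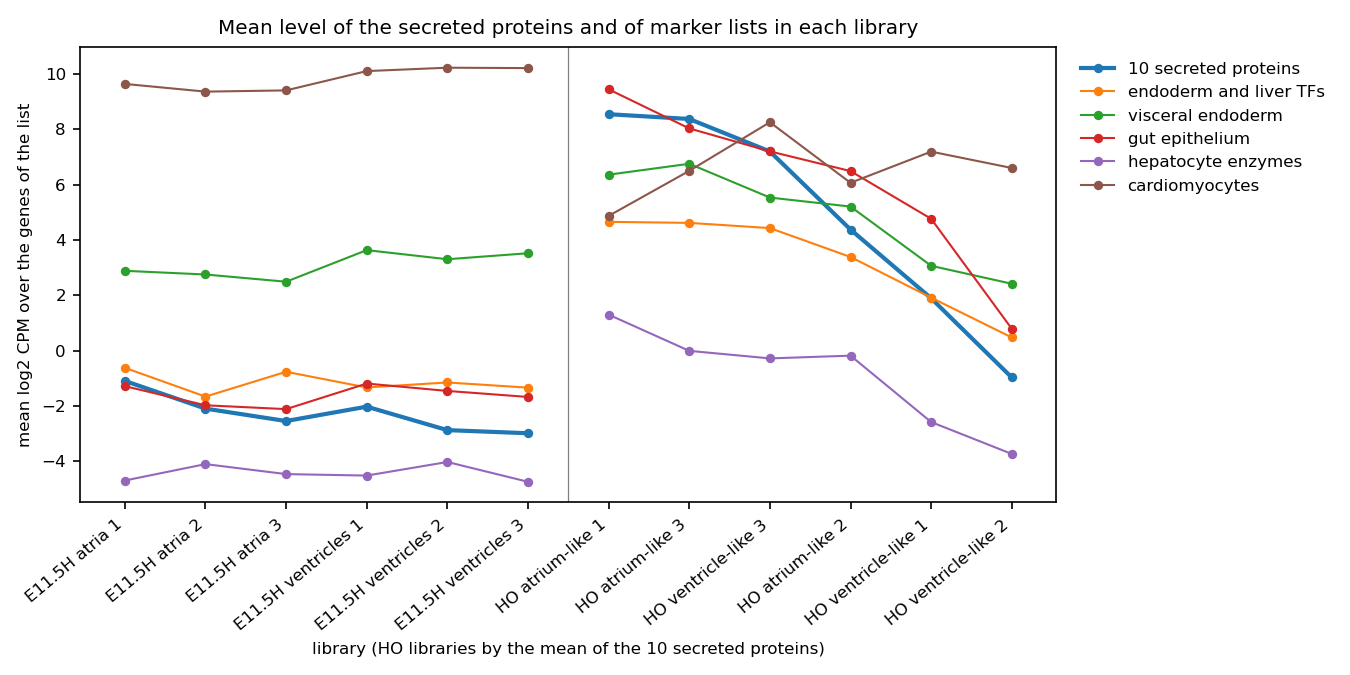
Mean log2 CPM over the genes of 6 lists in each library, with E11.5H libraries on the left and HO libraries on the right ordered by the mean of the 10 secreted proteins. In HO libraries the 10 secreted proteins (8.55 in atrium-like library 1, -0.97 in ventricle-like library 2) and the gut epithelium list (9.45 and 0.79) fell over the same libraries, while the cardiomyocyte list lay between 4.87 and 8.26 without that order.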

How the data were processed

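All 12 libraries were used, grouped by the sample labels. Per the labels and the methods, reads from TruSeq libraries of total RNA were mapped to GRCm38/mm10 with STAR; its version, the tool and strand setting for counting, and the annotation release are not given in the sources used here. As deposited, the table holds the expected count of fragments of each gene, not normalized (23.8% of values not whole), and FPKM, without correction for composition. CPM and shares were computed from the counts, log2 CPM with TMM and a prior count of 0.5.

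Counts were rounded, filtered (filterByExpr, at least 10), scaled by TMM and given to the quasi-likelihood test of edgeR 4.0.16 (R 4.3.3), with p-values adjusted by Benjamini-Hochberg over all genes tested, each pair of groups in its own fit and the interaction over all 12. The SE is the log2 fold change divided by the square root of its F statistic. Alternatives were DESeq2 1.42.0, limma-voom (limma 3.58.1), no filter, 1 fit of all libraries, secreted genes left out of library sizes, a replicate block, cardiomyocyte scaling and each library left out. The fits were tested on simulated counts. Replicates of a group differed by more than sampling noise in every pair. Counting intervals are exact at 95%. Python 3.11.15 and matplotlib 3.10.9 made the plots.

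The 10 genes, the lists and the tests were chosen with earlier results of these data known. The text names all 10 genes, up to 4 genes of a list with the highest mean CPM in HO libraries, and, of the 8 other genes most like the 10, those reported here; those named beyond this rule (Tdo2, Prox1, Cited1 and those called in the retinol list) were chosen after their values were seen.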

Additional observations from a re-analysis of the deposited data

How the results depend on the processing

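For HO atrium-like parts against E11.5H atria, 9 members were called in the reported fit, 8 to 9 under the alternatives other than limma-voom, 0 under limma-voom, and 7 to 9 with a library left out. For HO ventricle-like parts against E11.5H ventricles, where 4 were called, limma-voom called 0, the fit of all 12 libraries 8, the DESeq2 Wald test 3 (of 3 with an adjusted p) and the fit with no filter 5, and the counts with a library left out ran from 0 to 7. Between HO parts, cardiomyocyte scaling called 9 and every other setting 0; with a library left out the log2 fold change of Alb ran from -0.13 (without atrium-like library 3) to 6.24 (without ventricle-like library 3), and no other fold change of these 3 comparisons turned its sign. The cause was not tested. With the replicate block, 8 members were called against atria, 2 against ventricles and 0 between HO parts. Same-numbered HO libraries correlated at r = 0.040, 0.554 and 0.329 in their deviations from the group means, atrium-like library 1 correlated best with ventricle-like library 3 (0.385), and no other comparison passed 0.1, so the numbers were not taken to pair the libraries. Within E11.5H and for the interaction 0 were called in every setting run. The median pairwise r over HO libraries was 0.820 to 0.898 under its alternatives, including 0.867 without Apoc2, an alternative chosen after seeing the data. A library left out of a group of 3 leaves few degrees of freedom, and counts of 0 to 5 fragments in embryonic libraries limit the precision of the largest fold changes.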
